A study of Mus musculus with 7 samples.

Results

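Elane, Prtn3, Mpo, Ctsg, Ms4a3 and Prss57 are genes of the neutrophil precursor that builds the primary granules. They are 6 of the 32285 genes counted in each of 7 single-cell libraries of mouse liver, and were chosen by name with earlier results of these data known. Each library came from collagenase-dissociated liver tissue of C57BL/6J mice, and transcripts were tagged with unique molecular identifiers (UMIs), so that each counted UMI stands for 1 captured molecule. The study compared ABC-Myc mice, which carry Alb-Cre and CAG-MYC, with littermates that lacked one or both of these alleles. In ABC-Myc mice a human MYC transgene is freed of a STOP cassette by Cre driven from the albumin promoter, so MYC is switched on in the hepatocyte lineage and not by design in blood cells. The labels call all 7 libraries a hepatoblastoma murine model and give no genotype, age or group per library. The description of the library titled NEJ709 names NEJ634, and the title was used for every value of both. The study's text calls NEJ634, NEJ687, NEJ709 and NEJ723 tumors, but no comparison between genotypes was made, and values are given per library. Intervals in parentheses are exact 95% intervals and cover counting error only.

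Neutrophils form their granules in waves. At the promyelocyte stage the cell makes the primary, or azurophil, granules, and at the following myelocyte stage it makes the secondary granules, after which the segmented cell stops most granule synthesis. Elane (neutrophil elastase), Prtn3 (proteinase 3) and Ctsg (cathepsin G) are serine proteases of the primary granule that are stored in active form. Mpo (myeloperoxidase) is the haem enzyme of the same granule and makes hypochlorous acid from hydrogen peroxide and chloride. Prss57 (neutrophil serine protease 4) is a further protease of this family, and Ms4a3 is a membrane protein of granulocyte and monocyte progenitors. Neutrophils form in the bone marrow of the adult, whereas the fetal liver is a site of blood formation.

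The genes lie in 4 places of the mouse genome (GRCm38, GENCODE M21), and all 6 identifiers matched the annotation. Prss57 (ENSMUSG00000020323, chr10:79781474-79790961, minus strand), Prtn3 (ENSMUSG00000057729, chr10:79874476-79883174, plus strand) and Elane (ENSMUSG00000020125, chr10:79886247-79888215, plus strand) share a stretch of chromosome 10. The gap between Prtn3 and Elane measured 3.07 kb, and that between Prss57 and Prtn3 measured 83.5 kb. Mpo (ENSMUSG00000009350) is at chr11:87793581-87804413 on the plus strand, Ctsg (ENSMUSG00000040314) at chr14:56099881-56102574 on the minus strand and Ms4a3 (ENSMUSG00000024681) at chr19:11629496-11640851 on the minus strand. RefSeq promoter sequences (GRCm38.p6) were found for 5 of the 6 genes, and the 250 bases before each start were searched on both strands for the core letters bound by 4 factors of the granulocyte lineage. GAGGAA, the core of PU.1 sites, was found in 4 of 5, against 23.3% of 32851 promoters of the same length. AACNG (MYB) was found in 4 of 5, against 74.2% of promoters, and none of these matches overlapped a GAGGAA match. TTNNGNAA (C/EBP) was found in 1 of 5 against 36.8%, and TGNGGT (RUNX) in 1 of 5 against 40.1%. The 30 bases around a match are shown 5′ to 3′ on the strand of the gene to give the letters before the starts of the genes described next, with the match in capitals. All lie before the RefSeq start and overlap no annotated exon of their own gene. Exons of other genes were not tested. The Prtn3 window nevertheless lies inside the Prtn3 gene as GENCODE places it. Its RefSeq start is base 79879667, whereas the GENCODE gene begins at base 79874476. A match describes the letters and is not a mapped binding site.
Elane, chr10:79886215-79886244, plus strand, GAGGAA from base 85 to base 80 before the start: tcgtgtcccaggGAGGAAgtagggctgtgg
Prtn3, chr10:79879560-79879589, plus strand, GAGGAA from base 95 to base 90: ccaaactggaagGAGGAAgtgggacccaca
Mpo, chr11:87793548-87793577, plus strand, GAGGAA from base 224 to base 219: tgtggagagagaGAGGAAgttgcctttgtc
Ctsg, chr14:56102773-56102802, minus strand, GAGGAA from base 216 to base 211: ctcccagaaggaGAGGAAgaaaaggaagta
Ms4a3, chr19:11640892-11640921, minus strand, a C/EBP match from base 59 to base 52: taatggtatacTTGGGGAAgtgggtgggcc

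The deposited matrices list every barcode, so cells were called first, and 72528 cells were analysed after removal of likely doublets. Library totals lay between 40214395 and 132485391 UMIs. Levels are UMIs of a gene per 1000000 UMIs of all genes in the same pool (CPM). Each library was also read in its low-UMI barcodes (ranks 45000 to 90000 by total), none of which was tested for being a cell. They reach 952 UMIs each in NEJ634 but at most 90 in NEJ709, and what they hold was not tested. Between 11 and 191 barcodes were kept as cells in both libraries of a pair, over 21 pairs, and the libraries whose values rest on them are named below. In NEJ709, 90.8% of cells fell into 1 unnamed cluster led by the mitochondrial gene mt-Nd3. Cstdc5, Stfa2 and S100a8 were also among its leading genes. Its marker score, the mean log2 fold of the markers of a class, was highest for myelocyte-like cells, at 1.19, too low for a name. In NEJ634, 25.2% fell into an unnamed cluster led by the antibody gene Ighg2c. Elane, Mpo and Fcnb were also among the leading genes of this cluster. Its highest scores were 0.906 for promyelocyte-like and 0.886 for myelocyte-like cells, also too low for a name.

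The summed level of the 6 genes over all cells differed between libraries by more than 100-fold. It was 1286 CPM in NEJ687, 1080 in NEJ634, 1070 in NEJ709 and 763 in NEJ723, and 28.6 in NEJ654, 17.8 in NEJ677 and 10.8 in NEJ638. For Elane the level was 388 CPM in NEJ687 and 353 in NEJ634, 276 in NEJ709 and 162 in NEJ723, then 9.60 in NEJ654, 6.08 in NEJ677 and 4.94 in NEJ638. Prtn3 read 553, 368, 349, 283, 7.37, 4.78 and 3.05 CPM in the same order of libraries. Both genes thus had the same gap between 4 libraries and the other 3. Mpo ranged from 1.39 CPM in NEJ638 to 241 in NEJ709, and Ctsg from 0.33 CPM in NEJ638 to 140 in NEJ709. Ms4a3 was lowest in NEJ677, with 0.79 CPM, and highest in NEJ687, with 53.6 CPM. Prss57 ran from 0.22 CPM in NEJ638 up to 12.3 in NEJ709. For each of the 6 genes the same 4 libraries were the highest, although their order changed from gene to gene.

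**Figure D1:**
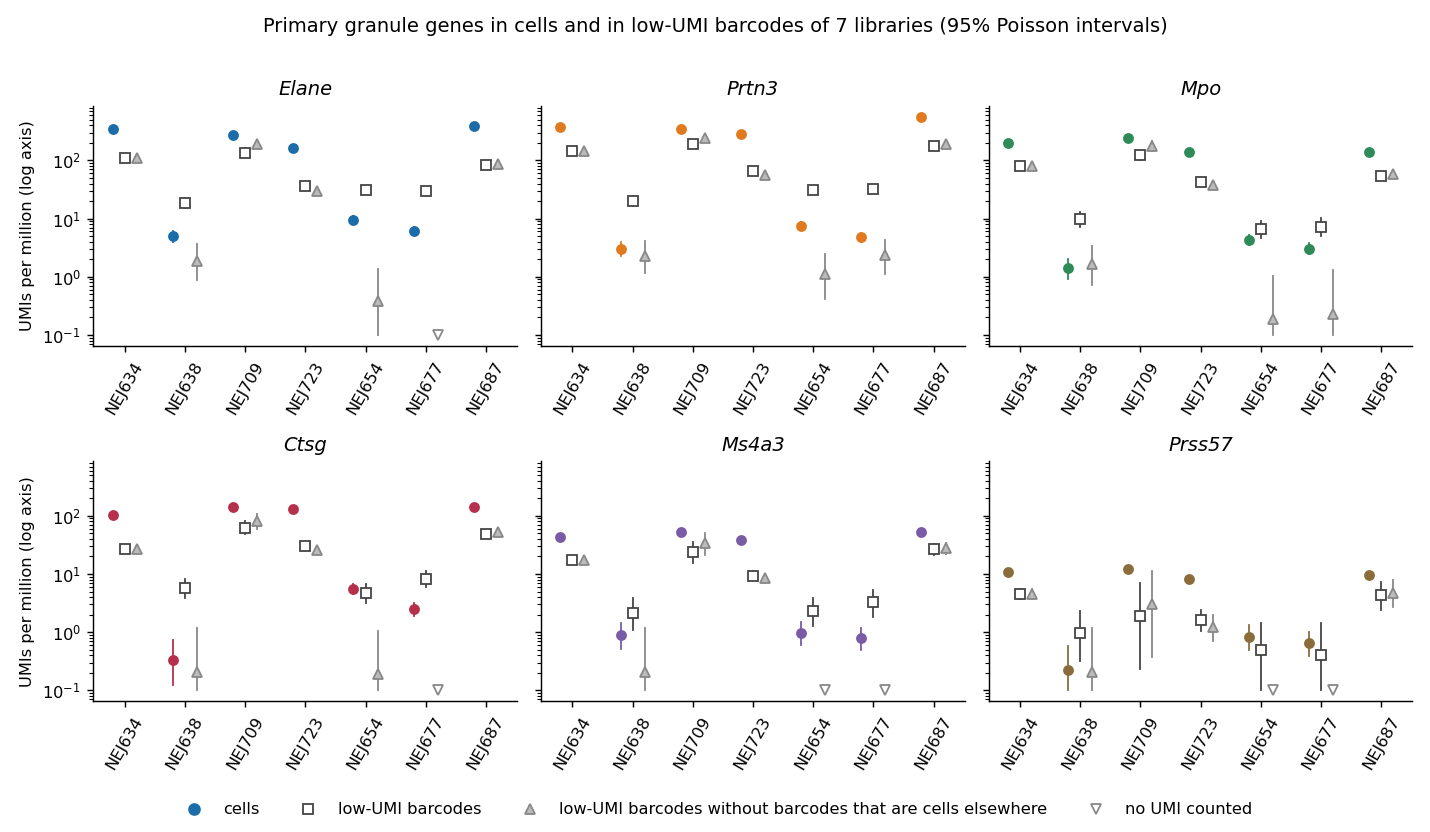
Level of each of the 6 genes in CPM (log axis) in the 7 libraries, with exact 95% Poisson intervals. Circles are cells, squares low-UMI barcodes and triangles low-UMI barcodes without those kept as cells in another library. Triangles are inverted where no UMI was counted. NEJ634, NEJ709, NEJ723 and NEJ687 lie above the other 3 libraries for each gene, and in these 4 the cells lie above the low-UMI barcodes of ranks 45000 to 90000.

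The same genes were counted in barcodes that hold no called cell. The summed low-UMI level was 383 CPM in NEJ634, 542 in NEJ709, 186 in NEJ723 and 395 in NEJ687, so the cells stood 2.82, 1.97, 4.11 and 3.26 times above it. In NEJ638, NEJ654 and NEJ677 the low-UMI level was 57.5, 75.7 and 80.4 CPM and lay above that of the cells. The choice of barcodes mattered: over barcodes of 10 to 100 UMIs the level was 872 CPM in NEJ723, above the 763 of its cells, 132 in NEJ634, 552 in NEJ709 and 461 in NEJ687. It was 562, 105 and 132 CPM in NEJ638, NEJ654 and NEJ677. Some barcodes of ranks 45000 to 90000 had a sequence that was kept as a cell in another library, and how this came about was not tested. Once barcodes kept as cells elsewhere were left out, the low-UMI level read 6.53 CPM in NEJ638, 1.88 in NEJ654 and 2.56 in NEJ677, and the cells, from which no barcode was left out, were higher in all 7 libraries. It read 384, 729, 160 and 419 CPM in NEJ634, NEJ709, NEJ723 and NEJ687.

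Barcodes kept as cells in more than one library carried 548 of the 617 member UMIs of NEJ654 and 427 of the 496 of NEJ677, but 1 of the 195 of NEJ638. NEJ654 and NEJ677 each held 7 promyelocyte-like cells, and these were the same 7 barcodes in both libraries, of which 5 were also kept as cells in NEJ687. They had 52 to 82 member UMIs each in NEJ654, 43 to 66 in NEJ677 and 24 to 38 in NEJ687. They held 489 of the 617 member UMIs of NEJ654 and 397 of the 496 of NEJ677. Without any barcode kept in more than 1 library, the summed level read 3.37 CPM in NEJ654 and 2.59 in NEJ677. The low-UMI barcodes there, without those kept as cells elsewhere, read 1.88 and 2.56 CPM. Of the 496 member UMIs of NEJ677, 399 lay in barcodes that held more member UMIs in another library, against 7 of 617 in NEJ654. Without those UMIs the level read 3.49 CPM in NEJ677 and 28.3 in NEJ654. In NEJ638, 150 of 195 member UMIs lay in 3 cells, 1 of which held 120.

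Across the granulocyte stages the 6 genes peaked in 1 small class. Promyelocyte-like cells were named from 9 other genes (Nkg7, Cst7, Gfi1, Cebpe, Hk3, Clec5a, Fcnb, Mgst1 and Plac8), and the 6 genes themselves were left out of clustering and naming. These markers did not all point the same way between the pooled classes. Cst7 read 184 CPM in promyelocyte-like against 2.07 in myelocyte-like cells and Gfi1 32.2 against 7.71. Fcnb read 237 against 492 CPM and Cebpe 211 against 493, so both were higher in myelocyte-like cells. The class held 116 cells: 53 in NEJ687, 35 in NEJ723, 10 in NEJ634, 7 in NEJ654, 7 in NEJ677, 4 in NEJ709 and 0 in NEJ638. Cells of this class had a median of 15342.5 UMIs and were among the richest in RNA. In the 53 cells of NEJ687, Elane read 19163 CPM and Prtn3 19320, and in the 35 cells of NEJ723 they read 10618 and 14134 CPM. Mpo read 5421 CPM in NEJ687 and 6148 in NEJ723, and Ctsg read 4798 and 6494. Ms4a3 was close in both libraries, at 2087 and 2119 CPM, as was Prss57, at 439 and 394 CPM. Together the 6 genes reached 51228 CPM in NEJ687 and 39907 in NEJ723. In the median promyelocyte-like cell they made up 4.86% of all UMIs in NEJ687 and 3.49% in NEJ723. At least 1 UMI of each of the 6 genes was held by 39 of 53 cells (73.6%) in NEJ687, where 4 cells have a shared barcode, and by 31 of 35 (88.6%) in NEJ723, where 1 has. Leaving out NEJ654 and NEJ677, whose cells share barcodes, moved the pooled Elane level from 14332 to 14260 CPM.

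Single cells of the class varied. In NEJ687 the lowest, median and highest Elane level per cell were 2621, 18601 and 45107 CPM, and in NEJ723 they were 0, 9604 and 30439 CPM. Prtn3 was detected in every one of the 116 cells. Correlations were taken on log2(CPM + 1) of each cell. Over the 53 cells of NEJ687 the Pearson correlation of 2 members ranged from 0.26 (Ctsg and Ms4a3) to 0.69 (Elane and Prtn3). Over the 35 cells of NEJ723 it ranged from 0.45 (Ms4a3 and Prss57) to 0.94 (Mpo and Ctsg). By rank the order of pairs was another one: Spearman's rho was 0.55 for Mpo and Ctsg and highest for Prtn3 and Ms4a3 (0.85) in NEJ723, and it ran from 0.31 to 0.67 in NEJ687. These cells share a library and their depth differs, so the correlations describe them only.

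To set classes of unequal depth side by side, each cell was thinned to 500 UMIs. A UMI of Elane then remained in 98.1% (89.9 to 99.95%) of promyelocyte-like cells of NEJ687 and 88.6% (73.3 to 96.8%) of those of NEJ723. For Prtn3 the shares were 100% and 97.1%, for Mpo 83.02 and 85.7%, for Ctsg 79.2 and 82.9%, for Ms4a3 52.8 and 42.9% and for Prss57 32.1 and 34.3%. Before thinning the lowest share of a gene was that of Prss57 in NEJ687, at 77.4%, and of Ms4a3 in NEJ723, at 91.4%. In T and NK-like cells, which do not make these proteins, 0.857% (0.177 to 2.48%) held a UMI of any of the 6 in NEJ687 after thinning and 0.588% (0.121 to 1.71%) in NEJ723. The unthinned shares for any of the 6 were 6.57 and 6.47% there, at a median depth of 3827 and 4771.5 UMIs, against 16229 and 19422 in promyelocyte-like cells.

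**Figure D2:**
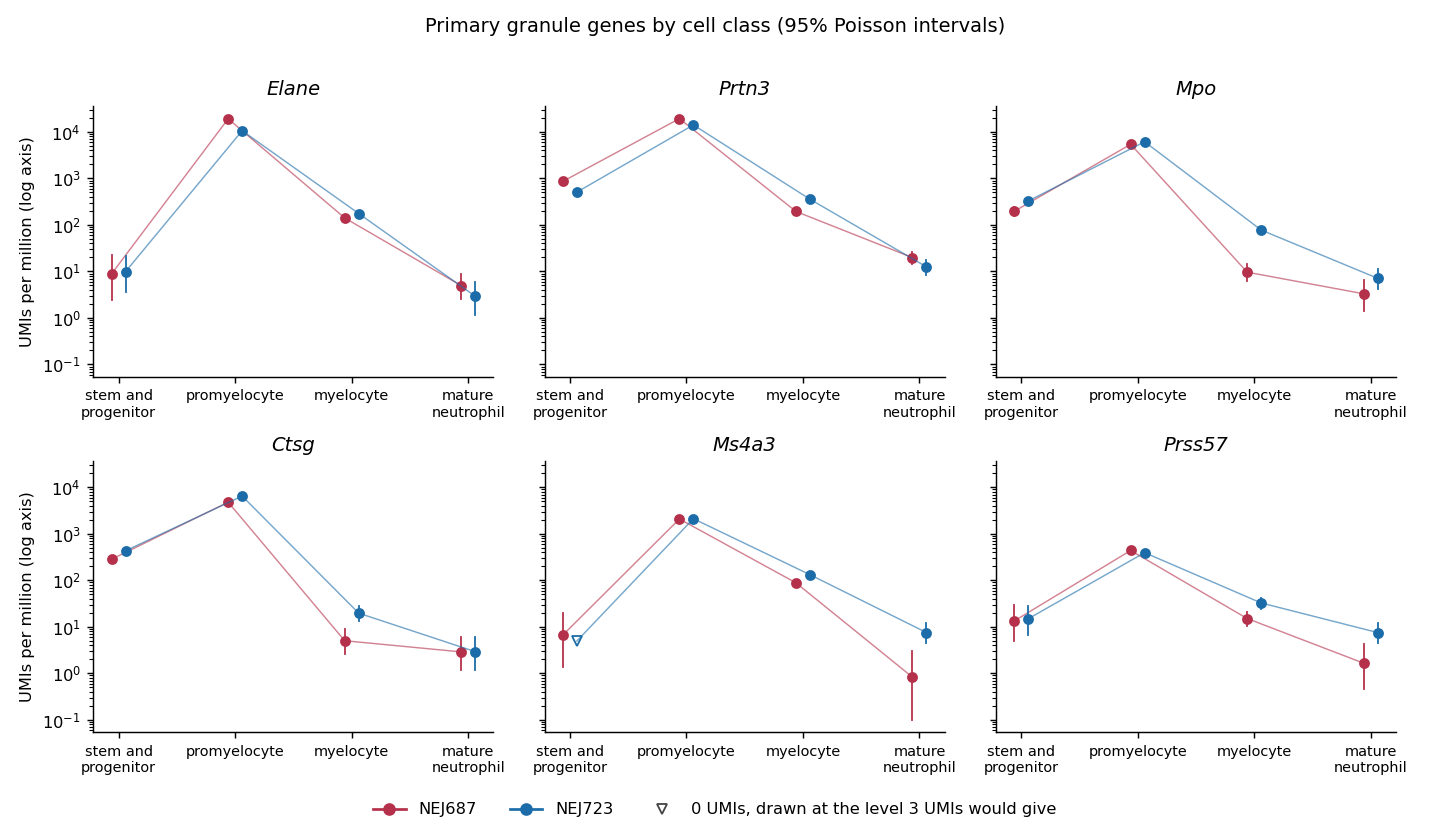
Level of each gene in CPM (log axis) in stem and progenitor-like, promyelocyte-like, myelocyte-like and mature neutrophil-like cells of NEJ687 and NEJ723, the libraries with at least 20 cells of each class, with exact 95% Poisson intervals. The open triangle marks a count of 0, drawn at 3 UMIs. Promyelocyte-like cells of NEJ723 and NEJ687 are the highest for each of the 6 genes.

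In stem and progenitor-like cells the members were unequally present. This class is 1 sub-cluster of 91 cells, 45 in NEJ723 and 32 in NEJ687, named from 7 genes such as Cd34 and Kit. Its leading genes were others, with Dntt and Ly6d, genes of lymphoid progenitors, first and Cox6a2, a marker of plasmacytoid dendritic cells, among them, so it is not placed as the stage before the promyelocyte. It held Prtn3 at 864 CPM in NEJ687 and 507 in NEJ723. Ctsg read 284 and 433 CPM there, and Mpo read 195 and 325 CPM. A few cells carried most of this: 5 of the 32 cells of NEJ687 held 67.6% of the member UMIs, with a median of 3.5 per cell, and 5 of the 45 of NEJ723 held 52.6%, with a median of 4. Elane read 8.88 CPM in NEJ687 and 9.91 in NEJ723, below the low-UMI levels of 82.4 and 36.1. Ms4a3 read 6.66 CPM in NEJ687, below the low-UMI level of 26.7, and had no UMI in NEJ723. Promyelocyte-like cells thus stood 22.4-fold (20.2 to 24.8) above stem and progenitor-like cells for Prtn3 in NEJ687 and 27.9-fold (24.9 to 31.3) in NEJ723. For Elane the same ratio was 2157 (842 to 7919) in NEJ687 and 1072 (492 to 2922) in NEJ723, over only 4 and 6 Elane UMIs in stem and progenitor-like cells, so the size of these ratios is poorly known. The part of free RNA in those UMIs was not tested. The intervals of Elane and Prtn3 did not overlap in either library. For Ms4a3 the ratio was 313 (107 to 1521) in NEJ687, and in NEJ723 promyelocyte-like cells were at least 428-fold higher, with 3 UMIs set for the count of 0. For Mpo it was 27.7 and 18.9, for Ctsg 16.9 and 15.01, and for Prss57 32.9 and 26.5, in NEJ687 and NEJ723. Stem and progenitor-like cells could not be named in these libraries at a finer clustering, with another seed or without doublet removal, so these ratios have no value there. After thinning, 14.3% (7.83 to 23.2%) of stem and progenitor-like cells held a Prtn3 UMI and 0 of 91 kept an Elane UMI, which allows up to 3.30% of cells with a UMI at that depth. Before thinning 6.59% held an Elane UMI.

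In myelocyte-like cells each member was lower than in promyelocyte-like cells. Myelocyte-like cells (633 cells) are named from secondary granule genes. In the 307 such cells of NEJ687, Elane read 141 CPM, Prtn3 195, Mpo 9.63, Ctsg 5.03, Ms4a3 88.4 and Prss57 15.1. In the 195 of NEJ723 the values were 176, 357, 77.6, 19.7, 132 and 32.6 CPM. These levels rest on few cells: 5 cells held 57.9% of the member UMIs in NEJ687 and 71.1% in NEJ723, and the median cell held 0. Ctsg in both libraries and Mpo in NEJ687 lay below the low-UMI levels, which were 49.3 and 29.9 CPM for Ctsg and 54.5 CPM for Mpo, and the part of free RNA in them was not tested. The Ctsg levels rest on 12 UMIs in NEJ687 and 32 in NEJ723. Against mature neutrophil-like cells of the same library, Ctsg was 6.73-fold (2.92 to 18.1) higher in NEJ723 and Mpo 2.92-fold (1.26 to 7.54) higher in NEJ687. For Ctsg in NEJ687 the ratio was 1.74 (0.631 to 5.21), on 12 against 7 UMIs, an interval that includes equal levels. For Ctsg the promyelocyte-like level was 955-fold (546 to 1849) above the myelocyte-like level in NEJ687 and 330-fold (233 to 483) in NEJ723. For Mpo it was 563-fold (374 to 889) and 79.3-fold (66.4 to 95.4). Elane stood 136-fold and 60.3-fold higher, and Prtn3 99.2-fold and 39.6-fold. The smallest ratios were those of Ms4a3, at 23.6 (20.4 to 27.4) and 16.01 (13.8 to 18.6), and Prss57, at 29.1 (20.6 to 42.3) and 12.1 (8.94 to 16.6). In both libraries the intervals of Ms4a3 and Prss57 lay below those of the other 4 genes. For all 6 together the ratio was 113 (106.2 to 119.96) in NEJ687 and 50.2 (47.4 to 53.1) in NEJ723, with a median of 81.5. That median ranged from 15.9 to 150 over the other settings tried, where 15.9 is a median over 3 libraries and 150 comes from the mean of the CPM of single cells, and the cause was not tested. Over 10 settings in each library, the main one included, Ms4a3 and Prss57 had the lowest ratios in all 10. The setting whose totals omit haemoglobin and mitochondrial UMIs scales the 6 genes of a class alike, so it could not change this order. The Ctsg ratio, over the few UMIs just given, ranged from 139 to 1308 in NEJ687 and from 47.8 to 861 in NEJ723, and the Ms4a3 ratio from 13.3 to 29.7 and from 8.46 to 25.1. In the same order the Mpo ratio ranged from 73.5 to 1094 and from 24.7 to 238. That of Elane ranged from 32.9 to 245 and from 15.4 to 153, and that of Prtn3 from 26.0 to 168 and from 12.6 to 88.1.

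A group of 65 cells led by Fcnb, which encodes ficolin B and is a gene of late promyelocytes, scored alike for both stages and was left unnamed. It held Elane at 5354 CPM, Prtn3 at 5653, Mpo at 1722, Ctsg at 875, Ms4a3 at 814 and Prss57 at 166. Between 56.9 and 90.5% of its member UMIs lay in 5 cells in NEJ687 (21 cells), NEJ723 (10), NEJ709 (11) and NEJ634 (20), where the median cell held 104 to 441. Within myelocyte-like cells, sub-clusters ranged for Elane from 0 to 274 CPM and for Ms4a3 from 8.09 to 175 CPM. One of them held Ms4a3 at 59.9 CPM with Elane at 4.61.

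Mature neutrophil-like cells (2610 cells) held little of any member. The pooled levels were 3.83 CPM for Elane, 13.2 for Prtn3, 5.38 for Mpo, 2.69 for Ctsg, 3.26 for Ms4a3 and 4.82 for Prss57. Summed, they were 33.4 CPM in NEJ687, 40.5 in NEJ723, 43.9 in NEJ634 and 28.1 in NEJ709, each below the low-UMI level of its library. After thinning, 1.74% (0.998 to 2.81%) of these cells held a UMI of any member in NEJ687 and 1.96% (1.02 to 3.40%) in NEJ723, with intervals that overlap those of T and NK-like cells. The unthinned shares were 6.42 and 12.6%. The summed levels did not overlap in NEJ723, at 40.5 CPM (32.9 to 49.5) against 13.2 (9.22 to 18.4) in T and NK-like cells. In NEJ687 they read 33.4 against 177 CPM, where 254 of 287 UMIs of T and NK-like cells lay in 1 cell. Elane in promyelocyte-like cells was 3868-fold (2214 to 7488) above mature neutrophil-like cells in NEJ687 and 3629-fold (1760 to 9029) in NEJ723.

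The make-up of the member UMIs differed between classes. In promyelocyte-like cells Elane took 37.4% of the UMIs of the 6 genes in NEJ687 and 26.6% in NEJ723, and Prtn3 took 37.7 and 35.4%. In stem and progenitor-like cells Prtn3 led in both libraries, with 62.9 and 39.3%, Ctsg followed with 20.7 and 33.5%, and Elane took 0.647 and 0.768%. In myelocyte-like cells pooled over libraries 19.3% of member UMIs were Ms4a3 and 1.79% were Ctsg. In basophil and mast-like cells Ctsg led, with 37.6% in NEJ687 and 30.2% in NEJ723, whereas Elane took 6.28 and 9.85%. In monocyte-like cells Prtn3 took 70.8% in NEJ687 and 45.7% in NEJ723. In the low-UMI barcodes of NEJ687 the Prtn3 share was 45.01%, and Mpo and Ctsg took 13.8 and 12.5% there against 1.92 and 3.34% in monocyte-like cells. In NEJ723, 798 of the 1409 member UMIs of monocyte-like cells lay in 1 cell.

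**Figure D3:**
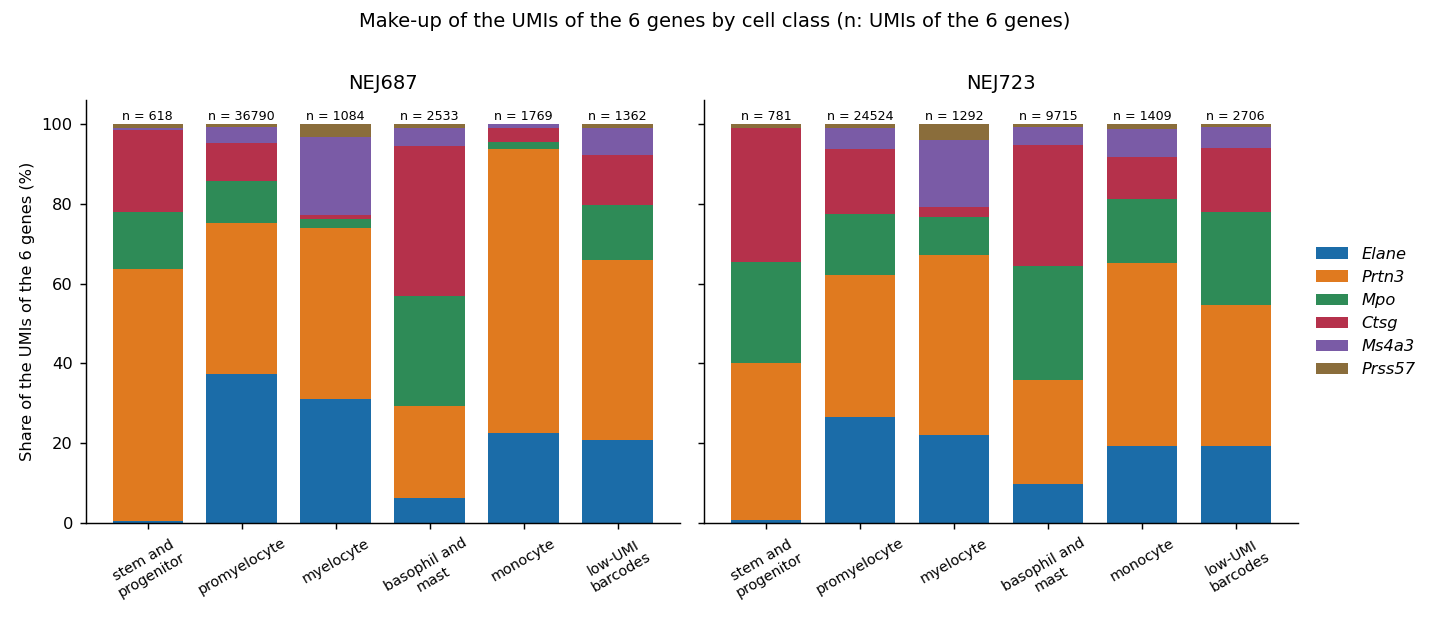
Share of each gene among the UMIs of the 6 genes, in percent, by cell class and in low-UMI barcodes of NEJ687 and NEJ723, with the number of UMIs (n) above each bar. Elane takes 37.4 and 26.6% in promyelocyte-like cells and under 1% in stem and progenitor-like cells of both libraries.

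Among the named classes, basophil and mast-like cells came next to the promyelocyte-like cells in both libraries that held at least 20 cells of each. Their summed level was 8998 CPM (89 cells) in NEJ723 and 6195 CPM (39 cells) in NEJ687, with 9715 and 2533 member UMIs. Unnamed groups are outside this order. The Gria3-led group described below held 6676 member UMIs in 29 cells of NEJ723 and 13010 in 29 cells of NEJ687. In basophil and mast-like cells 5 cells held 34.2% of the member UMIs in NEJ723, with a median of 29 per cell, and 51.1% in NEJ687, with a median of 22. Ctsg in this class was 2719 CPM in NEJ723 and 2331 in NEJ687. Promyelocyte-like cells thus stood only 2.39-fold (2.28 to 2.51) and 2.06-fold (1.92 to 2.21) above it. Mpo stood 2.39-fold and 3.17-fold higher in promyelocyte-like cells. For Elane the same ratio was 12.0 (11.2 to 12.8) in NEJ723 and 49.3 (42.1 to 58.0) in NEJ687. The class had 2 main sub-clusters. In one, 98 cells led by Prg2, Cpa3 and Mcpt8, Ctsg read 2749 CPM, Mpo 2496, Prtn3 2211, Elane 758, Ms4a3 390 and Prss57 67.5. In the other, of 88 cells, Ctsg read 263 CPM with Mpo at 18.8 and Elane at 3.80. Mcpt8, the basophil protease gene that neighbours Ctsg, read 2054 CPM in the class and 38.9 in promyelocyte-like cells.

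Other sub-clusters of the same cell group held all 6 genes but stayed unnamed. A group of 65 cells led by Gria3 held Prtn3 at 6622 CPM, Elane at 2652, Mpo at 2624 and Ctsg at 1998. A group of 78 cells led by Arg1 held Prtn3 at 3015 CPM, Elane at 1120, Ctsg at 611 and Mpo at 359. Monocyte-like cells held Prtn3 at 528 CPM in NEJ687 and 112 in NEJ723, and Elane at 169 and 47.7 CPM. The low-UMI barcodes of these libraries read 178 and 65.4 CPM for Prtn3 and 82.4 and 36.1 CPM for Elane.

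In both libraries with at least 20 promyelocyte-like cells, the order of the named classes began alike: promyelocyte-like, basophil and mast-like, then stem and progenitor-like cells (1290 CPM in NEJ723 and 1372 in NEJ687), each above the next beyond the intervals. Below them the order differed, and in NEJ687 myelocyte-like (454 CPM) and macrophage-like cells (416 CPM) had overlapping intervals. The macrophage-like values of NEJ687 and NEJ723 rest on single cells, which held 1091 of 1127 and 1429 of 1464 member UMIs. T and NK-like cells read 13.2 CPM in NEJ723 and 177 in NEJ687, where 254 of 287 UMIs lay in 1 of 350 cells, and endothelial-like cells 15.03 and 8.51.

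The classes in which the member UMIs lay changed from library to library. Promyelocyte-like cells held 51.7% of the member UMIs of NEJ687, 41.3% of NEJ723, 9.52% of NEJ634 and 6.12% of NEJ709. They held 79.3% in NEJ654 and 80.0% in NEJ677, by the shared barcodes above, without which they held none there, and none in NEJ638, where the Fcnb-led group described above held 76.9%. The Gria3-led and Arg1-led groups added 24.04% in NEJ687 and 14.4% in NEJ723, and basophil and mast-like cells held 16.4% of the UMIs of NEJ723. In NEJ634, 40.3% lay in the Ighg2c-led cluster and 20.2% in hepatocyte lineage-like cells. In NEJ709, 69.2% lay in the mt-Nd3-led cluster. The Ighg2c-led and mt-Nd3-led clusters are unnamed, and their highest marker scores, given above, were for granulocyte stages. In the mt-Nd3-led cluster Elane, Prtn3, Mpo and Ctsg took 25.3, 32.2, 23.5 and 12.7% of member UMIs. The low-UMI barcodes of NEJ709 read 25.1, 35.7, 22.8 and 11.6%. In the Ighg2c-led cluster the shares were 32.7, 32.1, 20.1 and 9.98%, against 29.0, 37.6, 20.6 and 7.12% in low-UMI barcodes of NEJ634. The part of free RNA in these clusters was not tested.

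**Figure D4:**
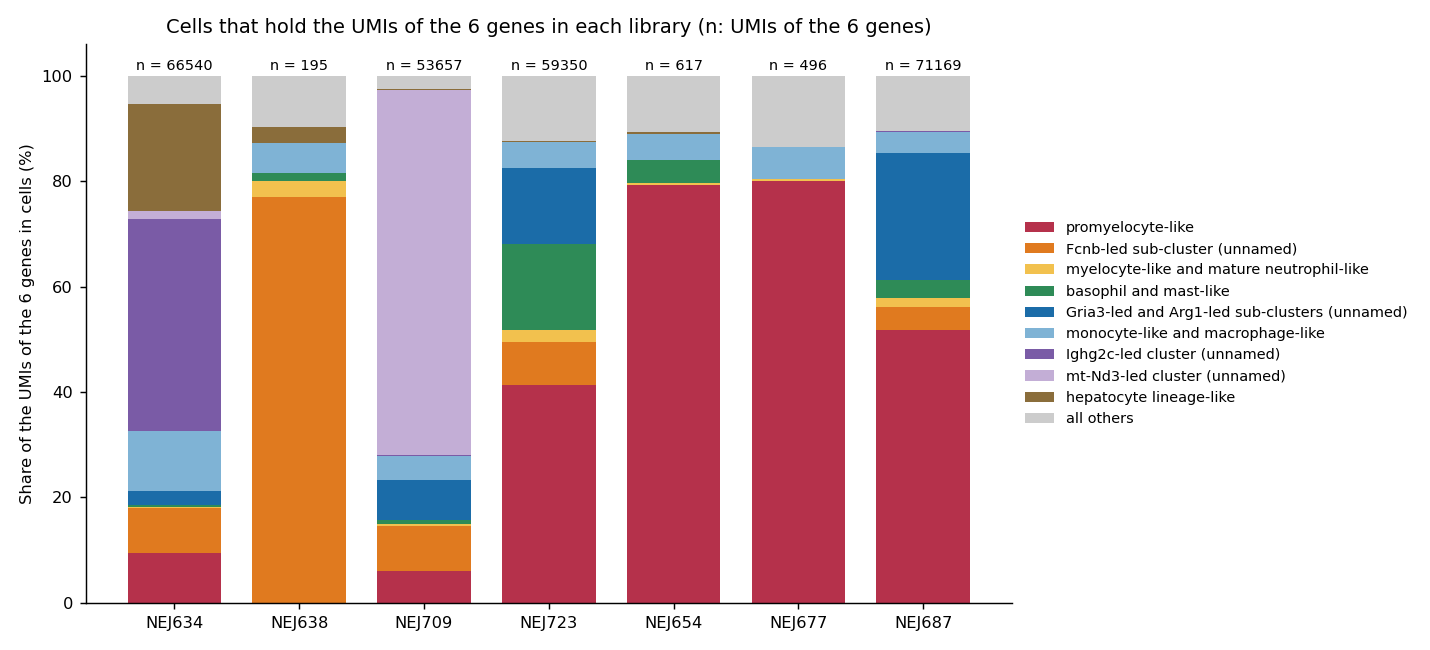
Share of the UMIs of the 6 genes in cells, in percent, by class or cluster (colours) and library (bars), with the number of UMIs (n) above each bar. Promyelocyte-like cells hold 51.7% in NEJ687 and 41.3% in NEJ723, whereas the mt-Nd3-led cluster holds 69.2% in NEJ709.

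How evenly the UMIs were spread over cells differed likewise. The 1% of cells richest in member UMIs held 92.1% of them in NEJ723 and 81.8% in NEJ687, but 48.1% in NEJ634 and 35.3% in NEJ709. In the mt-Nd3-led cluster of NEJ709 (12636 cells), 84.6% of cells had at least 1 member UMI, the median cell had 2 and the richest 5 cells held 1.09% of the UMIs. In hepatocyte lineage-like cells of NEJ634 the level was 503 CPM, where low-UMI barcodes read 383, and 24.8% of these cells held a member UMI. The 2738 macrophage-like cells of NEJ634 read 865 CPM. Of these cells 26.8% held a member UMI, and 5 cells held 15.2% of the UMIs. Some high class values rested on single cells. The 77 macrophage-like cells of NEJ709 read 4719 CPM, with 2197 of 2225 UMIs in 1 cell. The 231 erythroid-like cells of that library read 289 CPM, with 632 of 686 UMIs in 1 cell. In NEJ634 the 155 plasmacytoid dendritic-like cells read 2751 CPM, with 40.5% of the UMIs in 5 cells, and 118 T and NK-like cells read 408 CPM, with 175 of 266 UMIs in 1 cell. The part of free RNA and of doublets that passed the filter in these values was not tested.

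Genes that handle the granule proteins were read in the same cells, with each class pooled over libraries. Over 7307 genes of at least 10 CPM in either class, 52.4% were above the myelocyte-like level in promyelocyte-like cells beyond the intervals and 18.2% were below it, with a median difference of 0.75 on the log2(CPM + 1) scale. For the 6 granule genes, all above, the median difference was 6.56. Among 8 genes of protease handling, 6 were above and 1 was below, with a median of 1.88. Srgn encodes serglycin, the proteoglycan that packs proteases into granules, and read 3665 CPM in promyelocyte-like cells, 525 in myelocyte-like and 5049 in mature neutrophil-like cells. Cd63, a membrane protein of primary granules, and Calr (calreticulin), a chaperone of Mpo, were highest of all 17 classes in promyelocyte-like cells, at 815 and 796 CPM. Ctsc encodes the dipeptidyl peptidase that activates the serine proteases by trimming their ends. It read 41.9 CPM in promyelocyte-like cells, 10.7 in myelocyte-like cells and 927 in macrophage-like cells, the highest class. Serpinb1a, an inhibitor of elastase, proteinase 3 and cathepsin G, read 639 CPM in promyelocyte-like and 689 in myelocyte-like cells. Slpi, a secreted inhibitor of elastase and cathepsin G, was lower in promyelocyte-like than in myelocyte-like cells, at 234 against 609 CPM, and highest in mature neutrophil-like cells, at 2323 CPM.

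Of 5 transcription factors known to act on genes of this stage, 2 were above and 1 was below the myelocyte-like level beyond the intervals, with a median difference of 0.53, where 52.4% of all genes tested were above. Myb, a factor of proliferating progenitors, read 234 CPM in promyelocyte-like, 24.1 in myelocyte-like and 265 in basophil and mast-like cells. Cebpa, the factor that commits progenitors to granulocytes, read 29.8 against 2.26 CPM. Spi1, which encodes PU.1, read 219 CPM in promyelocyte-like, 364 in myelocyte-like and 548 in mature neutrophil-like cells. None of the 5 was highest in promyelocyte-like cells when the levels were pooled over libraries. The secondary and tertiary granule genes, which are markers of the later classes and so were used to name them, were lower in promyelocyte-like than in myelocyte-like cells for 8 of 8, against 18.2% of all genes tested. Camp (cathelicidin), for example, read 961 against 60957 CPM. Of 8 cell cycle genes 3 were above and 2 below the myelocyte-like level, with a median difference of 0.11. Mki67 read 149 against 320 CPM and Tyms 117 against 42.9.

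**Figure D5:**
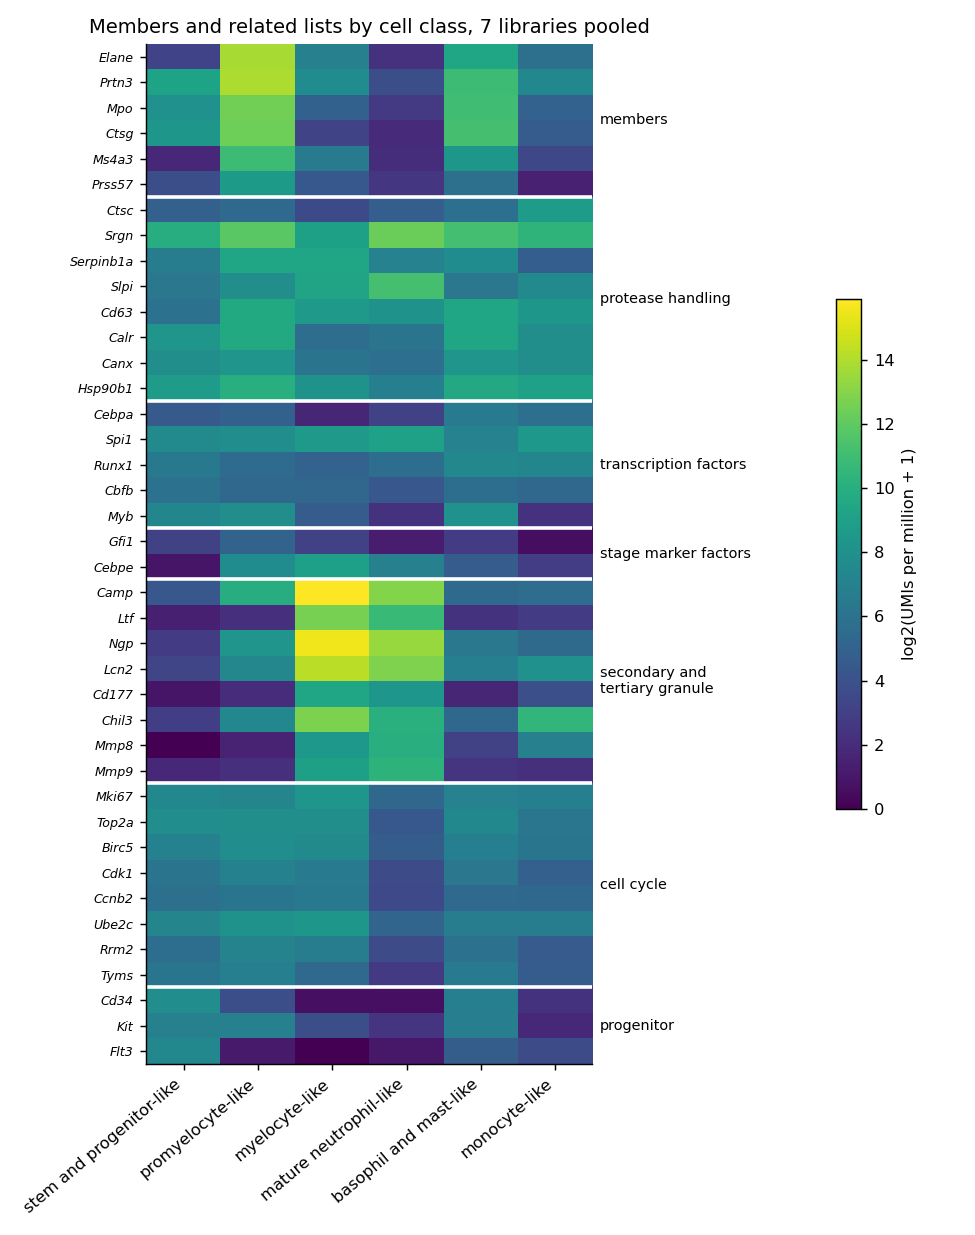
Colour map of the level, as log2(CPM + 1) from 0 (dark) to the highest value (yellow), of the 6 genes and the listed genes (rows) in 6 cell classes pooled over the 7 libraries (columns). The 6 genes are brightest in promyelocyte-like cells, whereas Camp and the other secondary and tertiary granule genes are brightest in myelocyte-like or mature neutrophil-like cells.

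Apart from Prtn3 and Elane, which are each other's nearest gene on one side, the nearest genes read lower in promyelocyte-like cells than the member beside them. Cfd, the complement factor D gene that lies 2.64 kb beyond Elane, read 0.607 CPM in promyelocyte-like cells, where Elane read 14332. Ptbp1, 9.70 kb before Prtn3, read 146 CPM there and 165 in T and NK-like cells. Lpo, the lactoperoxidase gene 2.01 kb beyond Mpo, had no UMI in any named class. Ms4a2, the basophil Fc receptor gene 5.78 kb from Ms4a3, read 6.68 CPM in promyelocyte-like and 293 in basophil and mast-like cells. Among the 6 genes, 3 overlap a gene on the opposite strand: Plppr3 (49.2 CPM in promyelocyte-like cells) with Prtn3, Fstl3 (3.04) with Prss57 and the antisense RNA Gm11505 (2.43) with Mpo.

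Genes were ranked by how like their pattern was to the mean log2 level of the 6 members. This used Pearson correlation on log2(CPM + 1) among 9278 genes, over 87 pools of cells. Each pool was a named class of 1 library with at least 20 cells, so unnamed cells were left out. Uchl5 and 1700020L24Rik had a correlation of 0.70, Plppr3 0.66, Fcnb 0.64, Ap3s1 0.62, Hmgn2 0.62, Rab44 0.61, Cst7 0.61, Serpinb1a 0.60 and Smim4 0.58. Fcnb and Cst7 are markers used to name the class, and Plppr3 overlaps Prtn3. Pools of 1 library share its preparation and depth, so these values describe likeness only. Among the listed genes, Camp (0.56), Cebpe (0.56), Mcpt8 (0.52), Ngp (0.51), Cd63 (0.50) and Myb (0.48) came next to Serpinb1a.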

How the data were processed

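Single-cell RNA was measured in 7 libraries of mouse liver with a 10x Genomics 3' kit. The deposited values are whole-number counts of UMIs for every gene in every barcode, which the authors had neither normalized nor filtered for cells. The file headers name Cell Ranger 4, whereas the submitters' processing notes name Cell Ranger 6.0 and the study's methods state that introns were counted, so which run made the files is not settled. The genome build is not given in the sources used here, and coordinates are those of GENCODE M21 (GRCm38).

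Cells were called in each library from a cutoff of 1/10 of the 99th percentile of UMIs among the 3000 largest barcodes. Barcodes over 500 UMIs, at most 20000 per library, were added where their profile differed from ranks 45000 to 90000 in a simulation test (10000 draws, adjusted p of 0.01). The limits for keeping a cell were over 500 UMIs and no more than 20% from mitochondrial genes (81361, with 7122 to 20241 per library and a median of 2091.5 to 4631 UMIs). Scrublet's own threshold marked almost no cells, so 8833 cells with the highest scores were removed as doublets at 0.8% per 1000 cells. The 72528 cells left were clustered (2000 variable genes, 40 components, 15 neighbours, Leiden resolution 1) without the 6 genes and without 21 genes of the lists of protease handling, transcription factors and cell cycle. This gave 37 clusters. Those of 796, 520 and 288 cells were split again, at resolution 1.5, into 21 sub-clusters. Their best scores were for myelocyte-like, stem and progenitor-like and basophil and mast-like cells, in that order. No cluster named monocyte-like, macrophage-like or mature neutrophil-like was split, nor were the Ighg2c-led and mt-Nd3-led clusters. A class name needed a mean log2 fold of its markers of at least 1.5, a lead of 1 over the next class and 3 markers up at 10 CPM or more. The 17 classes named left 33145 cells (45.7%) unnamed. These limits and the sub-clustering were set after the data were seen, and the members and gene lists were chosen with earlier results of these data known.

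Genes named in the text were the 6 members, the fixed lists, the nearest genes on each side of each member and the 10 genes most like the members over pools of at least 20 cells. Since the labels give neither groups nor replicates, groups were not compared, and Poisson or Clopper-Pearson intervals cover counting error only. The steps were checked on simulated data. The tools were scanpy 1.11.5, igraph 0.11.9, scikit-learn 1.9.0, scipy 1.17.1, numpy 2.4.6 and Python 3.11.15, with pandas 2.3.3 and matplotlib 3.10.9. Spatial and bulk data of the study were not analysed here.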

Additional observations from a re-analysis of the deposited data

Results flagged for a closer look

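Barcodes with over 500 UMIs and no more than 20% from mitochondrial genes that were not called as cells were not read as cells above, and in 4 libraries they held the 6 genes above the limit that a count of 0 allows. Their summed level was 548 CPM (542 to 555) in NEJ634, over 46818 barcodes, and 844 CPM (829 to 860) in NEJ709, over 10240 barcodes. The value of NEJ709 was 1.56 (1.43 to 1.70) times its low-UMI level. In NEJ634 the low-UMI barcodes reach 952 UMIs and overlap these, so no ratio is given. The summed level was 158 CPM (148 to 169) in NEJ723, over 9569 barcodes, and 284 CPM (245 to 328) in NEJ687, over 829 barcodes, 0.851 and 0.720 times the low-UMI level. In NEJ634, NEJ709 and NEJ723 the limit of 20000 tested barcodes was reached, so some of these barcodes were never tested for being cells. What they hold was not tested.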

How the results depend on the processing

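No paired analysis was possible because the labels give no groups. The cells exceeded low-UMI barcodes in 4 of 7 libraries, and in 3 with low-UMI barcodes of 10 to 100 UMIs. They did so in 7 once barcodes kept as cells in another library were left out of the low-UMI barcodes. The shared barcodes stay among the cells, and without them on both sides NEJ677 reads 2.59 against 2.56 CPM. The median share of member UMIs in promyelocyte-like cells, 41.3%, was 9.76% with cells above the first cutoff only, 46.6% with no doublet removal, 6.21% without barcodes kept in more than one library, 55.9% at Leiden resolution 2, 54.3% with another random seed and, chosen after seeing the data, 46.5% without NEJ709. The ratio of promyelocyte-like to myelocyte-like cells, 81.5, was 15.9 with no doublet removal (3 libraries), 29.9 at resolution 2, 24.3 with another seed (3 libraries) and 150 (149.7) as the mean of per-cell CPM. Promyelocyte-like cells were highest of the named classes in 2 of 2 libraries, or 3 of 3 with no doublet removal and with another seed. Of the 10 genes most like the members, 3 were shared under Spearman correlation and 6 each under log2(CPM + 10), a filter of 10 CPM and 1 pool per class. Of 1306 single values compared, 951 moved by less than their interval and 157 moved by more than 1.5-fold. The widest moves were in NEJ654, where Elane over all cells went from 9.60 to 0.0489 CPM without shared barcodes, and in myelocyte-like cells of NEJ634, where Prtn3 moved by 98.4-fold at resolution 2.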

Other observations

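Some named classes, picked for their low member levels, lay far below the low-UMI barcodes of their own library. In NEJ634, where low-UMI barcodes read 383 CPM for the 6 genes together, mature neutrophil-like cells read 43.9 CPM (30.02 to 62.0), erythroid-like cells 17.2 (11.7 to 24.2) and endothelial-like cells 15.8 (7.21 to 29.9). In NEJ723 the low-UMI barcodes read 186 CPM and T and NK-like cells 13.2 (9.22 to 18.4). In NEJ687 the low-UMI barcodes read 395 CPM, mature neutrophil-like cells 33.4 (26.6 to 41.6) and endothelial-like cells 8.51 (2.76 to 19.9). The low-UMI barcodes therefore held a higher level of the 6 genes than many of the cells around them did.

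Haemoglobin and mitochondrial UMIs take part of every total, and leaving them out of the totals moved 37 of 154 single values up and 0 down beyond their interval. A smaller total can only raise a CPM or leave it unchanged, so the direction of these moves was fixed in advance.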
